A study of Homo sapiens with 4 samples.

Results

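The 7 genes described here encode the SNAI (Snail, Slug and SNAI3), TWIST and ZEB transcription factors, known together as inducers of epithelial–mesenchymal transition (EMT). Regions were taken as members when a deposited 1000-bp tile with a methylation difference overlapped the GENCODE GRCh37 span of SNAI1, SNAI2, SNAI3, TWIST1, TWIST2, ZEB1 or ZEB2 extended by 10 kb on either side. This gave 31 of the 72455 distinct regions that the 3 tables hold. The members comprised 8 regions at TWIST1, 9 at SNAI3, 6 at ZEB2, 4 at TWIST2, 3 at SNAI1, 1 at ZEB1 and none at SNAI2.

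The cells were clones of SKOV3, a mesenchymal-like cell line of human ovarian cancer, in which the endocytic receptor LY75 was manipulated to shift cells between the mesenchymal (M) and the epithelial (E) state. DNA methylation was measured by reduced representation bisulfite sequencing (RRBS), in which MspI cuts DNA at CCGG and bisulfite converts unmethylated cytosines, in 4 libraries with 1 library per clone. The M clones were shC-S, with a control shRNA, and LY75-R-S (labelled Ly75-OV-S), in which LY75 was re-expressed in knockdown cells that still carried the LY75 shRNA. The E clones were sh-LY75-S, with an LY75 shRNA, and LY75-KO-S, in which LY75 was disrupted by CRISPR. The control of the knockout clone was thus a rescued knockdown clone and not the cells it was made from. As no clone had a replicate, the effect of LY75 and other differences between the clones of a pair cannot be told apart. The phenotypes had 2 libraries each, but without levels per library in the tables no test between M and E libraries could be computed.

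The authors deposited 3 tables. The knockdown comparison set shC-S against sh-LY75-S, the knockout comparison set LY75-R-S against LY75-KO-S, and these single comparisons share no library. The mix set the M clones against the E clones and holds the same 4 libraries. Each lists the difference in percent methylation of a tile in percentage points, with a q-value (adjusted p-value) that compares the reads of libraries. No listed absolute difference was under 25 points, and the largest q was 0.00982, 0.00986 and 0.0046, in the same order. A positive difference is read as hypermethylation in E cells. In the knockdown comparison this reading gave the stated direction at 10 of 10 genes whose change in E cells the study states, and in the mix at 6 of 7. In the knockout comparison it rests on the grouping of the clones in the mix, to which both single comparisons contributed with positive coefficients (0.534 and 0.435 over 4250 regions). The stated direction was then found at 3 of 5 genes, and the deposited name of this comparison puts the knockout before the rescue clone. If the order were the opposite, every sign given below for the knockout comparison would be reversed. The tables carry neither read numbers nor methylation levels per library, so depth is unknown, and a region that is absent from a table may have been alike in both libraries or not covered.

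SNAI proteins are zinc finger repressors that bind E-box sequences at promoters of epithelial genes such as CDH1 (E-cadherin). ZEB proteins bind paired E-boxes through clusters of zinc fingers at each end, and TWIST proteins are basic helix-loop-helix factors that bind E-boxes as dimers. Cells entering EMT commonly express several of them, and they hold epithelial genes down and mesenchymal genes up. Methylation of CpG-dense DNA around a transcription start site (TSS) is commonly associated with a silent promoter, while methylation within a gene body has no fixed relation to expression. Expression was not analysed here, so a direction of methylation given below is not a direction of expression. From earlier work, the paper reports that LY75 depletion in SKOV3 induced E-cadherin, while TWIST1 and SNAIL1 were lost.

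The following stretches show the DNA behind the regions that the results turn on, read from GRCh37 on the strand of the gene, 5′ to 3′, with every CpG in capitals. They were chosen as the promoter side of TWIST1 and the upstream region of SNAI3, which were hypermethylated in all tables, a TWIST1 region that was hypomethylated in all tables, and a stretch of the ZEB2 region that holds internal TSSs, which themselves lie outside the stretch. Each is the 200-bp window of its region with the most CpGs that MspI fragments of 40 to 220 bp and reads of 50 bp could reach (readable CpGs), leaving out windows that touch an annotated untranslated region.
TWIST1 upstream of the TSS (chr7:19157452-19157651, minus strand): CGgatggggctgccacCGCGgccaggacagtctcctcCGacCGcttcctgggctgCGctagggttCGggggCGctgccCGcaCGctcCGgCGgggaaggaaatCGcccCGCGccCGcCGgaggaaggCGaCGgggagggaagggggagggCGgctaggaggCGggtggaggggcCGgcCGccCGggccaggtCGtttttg
TWIST1 downstream (chr7:19152026-19152225, minus strand): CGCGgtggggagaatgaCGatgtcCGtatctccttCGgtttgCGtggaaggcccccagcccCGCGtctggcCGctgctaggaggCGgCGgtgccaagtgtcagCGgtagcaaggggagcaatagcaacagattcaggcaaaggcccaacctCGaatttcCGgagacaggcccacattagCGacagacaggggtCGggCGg
SNAI3 upstream (chr16:88758429-88758628, minus strand): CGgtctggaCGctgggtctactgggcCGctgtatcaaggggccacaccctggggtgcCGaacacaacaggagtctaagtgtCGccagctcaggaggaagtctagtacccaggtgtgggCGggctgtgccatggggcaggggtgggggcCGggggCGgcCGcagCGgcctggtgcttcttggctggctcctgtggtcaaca
ZEB2 intron 2 near internal TSSs (chr2:145273313-145273512, minus strand): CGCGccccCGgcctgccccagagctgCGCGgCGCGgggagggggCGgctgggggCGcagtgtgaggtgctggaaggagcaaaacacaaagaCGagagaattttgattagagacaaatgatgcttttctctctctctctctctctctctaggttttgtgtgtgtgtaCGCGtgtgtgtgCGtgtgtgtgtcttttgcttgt
The TWIST1 windows hold 25 and 17 CpGs with 17 and 10 readable, the SNAI3 window holds 10 with 5 readable and the ZEB2 window 13 with 3 readable. A single form of the E-box, CAGGTG, whose reverse complement is CACCTG, was searched on both strands, and other forms were not counted. This form occurs 1 time in the SNAI3 window and not in the others. Over whole regions it was found in 23 of the 31 members (74.2%), while 69.2% of all listed regions of the series hold it.

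Most regions of the loci were hypomethylated in the knockdown comparison, in contrast to the table as a whole, while in the knockout comparison the hypermethylated share lay near that of the table. In the knockdown comparison, 21 regions were listed, of which 3 were hypermethylated in E cells (14.3%) and 18 hypomethylated, whereas 64.7% of all 51243 regions in that table were hypermethylated. In the knockout comparison, 10 of 15 regions were hypermethylated (66.7%), beside 54.7% of all 28282. The mix listed 11 regions, 2 of them hypermethylated (18.2%), beside 65.0% of all 20986. In the knockdown comparison, SNAI1, TWIST2, ZEB1 and ZEB2 had no hypermethylated region, TWIST1 had 1 of 5 and SNAI3 2 of 4. In the knockout comparison the hypermethylated regions were 5 of 6 at SNAI3, 4 of 6 at TWIST1, 1 of 2 at TWIST2 and 0 of 1 at ZEB2, so that 2 genes held nearly all of them. Regions of a locus lie close together and are not independent.

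**Figure D1:**
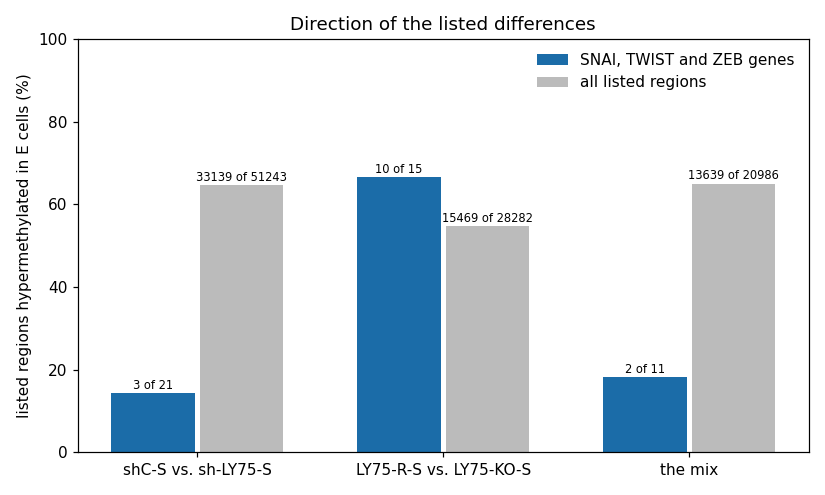
Percent of listed regions that were hypermethylated in E cells (vertical axis, %), for the SNAI, TWIST and ZEB genes and for all listed regions of each comparison, with the counts above the bars. The blue bar stands at 14.3% against 64.7% in the knockdown comparison and at 66.7% against 54.7% in the knockout comparison. The tables give no values per library, so there is no error bar.

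The listed differences at these loci were close in size to those over all regions. The median absolute difference was 50.0 points in the knockdown comparison (50.0 points over all regions of the table), 43.9 points in the knockout comparison (41.9) and 36.7 points in the mix (36.9). Differences of at least 50 points were listed for 11 of 21 regions in the knockdown comparison (52.4%, beside 53.2% of all), for 7 of 15 in the knockout comparison (46.7%, beside 37.5%) and for 2 of 11 in the mix (18.2%, beside 21.6%). The tables were also set against the tiles that MspI fragments can reach. Of the 111 reachable tiles of the 7 loci, 21 were listed in the knockdown comparison (18.9%, beside 12.4% of all 384553 reachable tiles), 14 in the knockout comparison (12.6%, beside 6.63%) and 11 in the mix (9.91%, beside 5.14%). The digest is an approximation, since it reaches 93.0% of all regions listed in the knockdown comparison and 90.1% of those in the knockout comparison. The shares were not tested, as neighbouring tiles of a clone are not independent.

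The regions near a TSS did not all lie at the main promoter. Of the 111 reachable tiles of the loci, 22 lay within 2 kb of a canonical TSS. Of these 22, 4 were listed in the knockdown comparison, 2 in the knockout comparison and 1 in the mix. Over all 111 tiles the listed numbers were 21, 14 and 11. The share of reachable tiles near a canonical TSS that were listed over all genes was not computed. These counts therefore do not show whether listing near a TSS was particular to the 7 genes. In the knockdown comparison, SNAI1, TWIST1, TWIST2 and ZEB2 had a region within 2 kb of a TSS of any transcript (4 of 7 genes, beside 37.5% of the 20163 protein-coding genes). In the knockout comparison these were SNAI3 and TWIST1 (2 of 7, beside 21.4%), and in the mix TWIST1 and ZEB2 (2 of 7, beside 19.9%). TWIST2 entered with a region behind its TSS tile and ZEB2 with internal starts alone. Of the 31 regions, 7 lay within 2 kb of any TSS, 5 within 2 kb of the TSS of a canonical transcript, and 2 held that TSS, at SNAI1 and TWIST1. Inside a gene span lay 16 regions and in a flank 15, and 11 lay on another annotated gene. These classes do not measure distance from a promoter, and the shares of all listed regions in them were not computed.

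**Figure D2:**
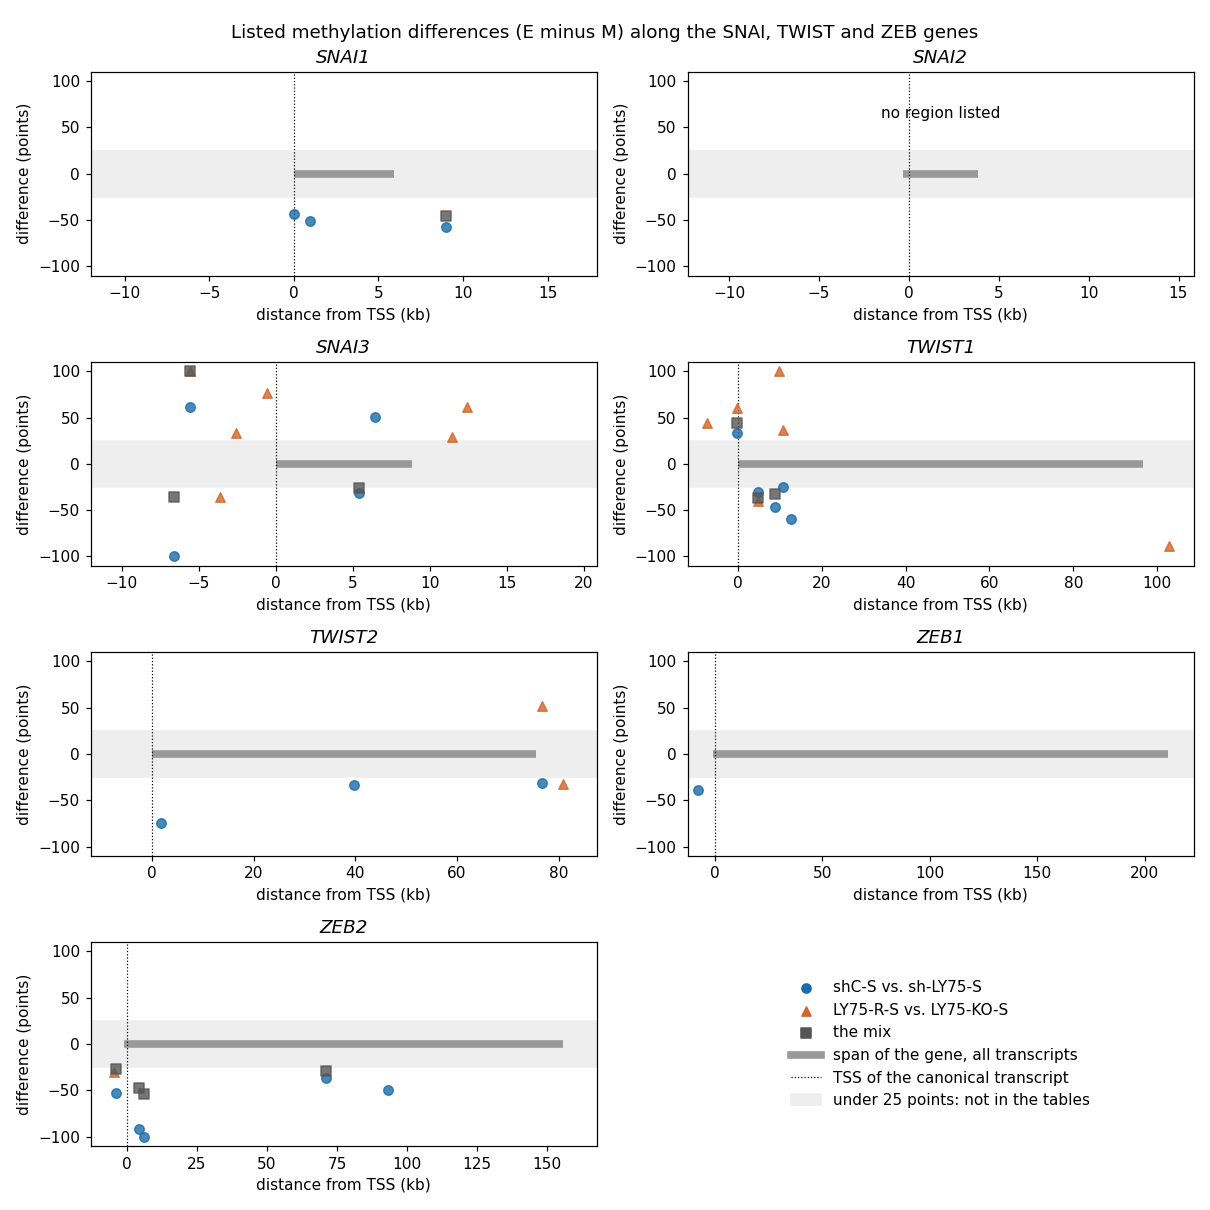
Difference in percent methylation (vertical axis, points, E minus M) of each listed region against the distance of its centre from the canonical TSS (horizontal axis, kb, in the direction of transcription), with 1 panel per gene. Blue circles stand for the knockdown comparison, orange triangles for the knockout comparison and grey squares for the mix. The grey band covers differences under 25 points, which the tables do not hold. SNAI1, ZEB1 (1 region) and ZEB2 have points below the band only, and TWIST1 has points above it at the TSS in all comparisons.

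SNAI1 encodes Snail, a direct repressor of CDH1, and its promoter was hypomethylated in the knockdown clone. The gene lies at chr20:48599517-48605423 on the plus strand of hg19. The region at chr20:48599001-48600000, which holds the TSS, exon 1 and part of intron 1 with 98 CpGs, of which 52 are readable, differed by −43.8 points, with less methylation in sh-LY75-S than in shC-S (q = 2.54e-89). It is the most CpG-rich of the 31 members. The next region, chr20:48600001-48601000, which covers exon 2 and parts of introns 1 and 2, was also hypomethylated (−50.7 points, q = 2.09e-22), so that the first 2 tiles of the gene changed in the same direction. A region 8484 bp downstream of the TSS, in the flank at chr20:48608001-48609000, differed by −57.1 points in the knockdown comparison and by −45.3 points in the mix. No SNAI1 region was listed in the knockout comparison, and the promoter regions were absent from the mix.

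SNAI2 encodes Slug, the closest relative of Snail, and had no listed region in any of the tables. The gene (chr8:49830157-49834299, minus strand) offers few sites to this assay, as 3 tiles of the locus can be reached by MspI fragments, 1 of them within 2 kb of the canonical TSS. The tile with the TSS holds 44 CpGs, of which 13 are readable. More CpGs are readable in the TSS tiles of SNAI1 (52), SNAI3 (45), TWIST1 (46), TWIST2 (75) and ZEB1 (80), and fewer in that of ZEB2 (0).

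SNAI3 encodes a less studied Snail family repressor, and its regions differed in direction over short distances. The gene (chr16:88744096-88752915, minus strand) overlaps the antisense gene SNAI3-AS1, on which 5 of the 9 regions also lay, and bisulfite reads give methylation of the DNA without telling the 2 genes apart. The region next to the promoter, chr16:88753001-88754000, starting 86 bp upstream of the TSS with 54 CpGs, was hypermethylated in LY75-KO-S (76.0 points, q = 1.74e-09) and was not listed in the knockdown comparison. Further upstream, regions starting 2086 and 3086 bp from the TSS differed by 32.9 and −36.0 points in the knockout comparison. Adjacent tiles thus went in opposite directions in the same pair of clones.

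The SNAI3 region at chr16:88758001-88759000, 5086 bp upstream of the TSS, was hypermethylated in all tables. The difference was 61.4 points in the knockdown comparison (q = 8.22e-82), 100 points in the knockout comparison (q = 2.01e-45) and 100 points in the mix (q = 3.99e-116). The mix value exceeded the mean of the single comparisons, which was 80.7 points. If all 4 libraries had entered the mix with the reads behind the single comparisons, 100 points in the mix could not stand beside 61.4 points for shC-S and sh-LY75-S. The tables do not say which reads each value rests on, so the mix value of this region cannot be read as a level of all 4 libraries. The adjacent region, chr16:88759001-88760000, differed by −100 points in the knockdown comparison and by −36.1 points in the mix, again opposite to its neighbour.

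Within and behind SNAI3, intron 2 was hypermethylated in sh-LY75-S at chr16:88746001-88747000 (51.0 points). The adjacent tile over exon 2 and intron 2, chr16:88747001-88748000, was hypomethylated (−31.3 points, and −26.6 points in the mix). In the downstream flank, on SNAI3-AS1, 2 adjacent regions were hypermethylated in LY75-KO-S, by 61.1 points at chr16:88740001-88741000 and by 29.0 points at chr16:88741001-88742000. SNAI3 had hypermethylated regions in both single comparisons, 2 of 4 and 5 of 6.

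TWIST1, a regulator of mesoderm and cranial development that induces EMT, was the only one of the 7 genes whose canonical TSS region was listed in all 3 tables, and it was hypermethylated in each. The canonical transcript spans chr7:19155091-19157259 on the minus strand, and longer transcripts reach to chr7:19060614. The region chr7:19157001-19158000 holds the TSS and part of exon 1, has 87 CpGs with 46 readable, and also lies on the lncRNA gene ENSG00000236536. It was higher in sh-LY75-S than in shC-S by 33.6 points (q = 3.79e-100) and higher in LY75-KO-S than in LY75-R-S by 60.2 points (q = 1.33e-127). In the mix the difference was 44.3 points (q = 7.25e-161), near the mean of the single comparisons of 46.9 points. Both E clones therefore had more methylation here than their M counterparts, with the order of subtraction as read above.

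A second TWIST1 region had the opposite direction in all tables. It lies at chr7:19152001-19153000, 4259 bp downstream of the canonical TSS, beyond the canonical transcript but inside longer ones, and on the lncRNA gene ENSG00000232821. Its difference was −30.1 points in the knockdown comparison (q = 5.42e-25), −39.9 points in the knockout comparison (q = 3.09e-50) and −36.7 points in the mix (q = 2.19e-70). TWIST1 thus combined a hypermethylated start with a hypomethylated region behind the canonical gene in both pairs of clones.

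Behind this region, in an intron of the longest transcript, the pairs of clones diverged. In the knockdown comparison, regions at chr7:19144001-19145000, chr7:19146001-19147000 and chr7:19148001-19149000 were all hypomethylated, at −59.5, −25.3 and −46.5 points. In the knockout comparison, the region at chr7:19146001-19147000 was instead hypermethylated by 36.9 points, and the adjacent one at chr7:19147001-19148000 by 100 points. Of these, the region at chr7:19148001-19149000 was listed in the mix (−32.7 points), while the region with opposite signs was not. In the flanks, the knockout comparison held 43.9 points at chr7:19164001-19165000, upstream, and −88.6 points at chr7:19054001-19055000, where the reference has 2 CpGs and no readable CpG.

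TWIST2 (also known as Dermo-1), which is close to TWIST1 in sequence and function, was hypomethylated just behind its promoter in the knockdown clone. The gene lies at chr2:239756673-239832230 on the plus strand. The region chr2:239758001-239759000 in intron 1, 1275 bp downstream of the canonical TSS, has 43 CpGs and differed by −75.0 points (q = 1.16e-41). The tile with the TSS, with 98 CpGs, was not listed in any table, so that the listed difference lies behind the start. Deeper in intron 1, chr2:239796001-239797000 differed by −33.3 points in the same comparison. The downstream flank held chr2:239833001-239834000, at −31.9 points in the knockdown comparison and 51.9 points in the knockout comparison, and chr2:239837001-239838000, at −32.0 points in the knockout comparison. No TWIST2 region was listed in the mix.

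ZEB1, a central repressor of epithelial genes that acts in a mutual negative loop with the miR-200 family, had no listed region at its promoter. The gene (chr10:31607424-31818742, plus strand) has a TSS tile with 126 CpGs, 80 of them readable, and 4 tiles within 2 kb of the canonical TSS can be reached, but none was listed in any of the tables. A region upstream, chr10:31600001-31601000, 7145 bp from the canonical TSS on the antisense gene ZEB1-AS1, was hypomethylated in the knockdown comparison (−39.0 points, q = 3.94e-43).

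ZEB2, also known as SIP1, had the largest hypomethylation within 2 kb of a TSS among the 7 genes, at internal starts and in the knockdown clone. The gene (chr2:145121931-145278624, minus strand) has 5 regions in the knockdown comparison, all hypomethylated, and 4 of them were hypomethylated in the mix. The region chr2:145273001-145274000, in intron 2 of the canonical transcript, holds the TSSs of alternative transcripts at 145273731 and 145273964 and has 54 CpGs with 28 readable. Its difference was −91.9 points in the knockdown comparison and −47.4 points in the mix, with q listed at 0 in both. The nearby region chr2:145271001-145272000, 18 bp from another annotated TSS, differed by −100 points and by −53.4 points in the mix.

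Upstream of ZEB2, on the lncRNA genes LINC01412 and LINC02993, chr2:145281001-145282000 differed by −53.4 points in the knockdown comparison and by −27.4 points in the mix. At the regions from 145271001, 145273001 and 145281001 the mix difference was 0.534, 0.516 and 0.514 times that of the knockdown comparison. At the region from 145206001 this ratio was 0.796, and none of these regions was listed in the knockout comparison. Across the 8 member regions in the knockdown comparison and the mix but not the knockout comparison, the ratio ran from 0.361 to 0.849. Next to the region from 145281001, the upstream tile chr2:145282001-145283000 was listed only in the knockout comparison, at −30.0 points. Far inside the gene, chr2:145184001-145185000 differed by −50.0 points and chr2:145206001-145207000 by −37.0 points in the knockdown comparison, the latter by −29.4 points in the mix. The tile with the canonical TSS of ZEB2 holds 28 CpGs, none of which is readable in the digest.

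Both single comparisons listed 5 of the 31 regions, or 23.8% of the regions in the knockdown comparison and 33.3% of those in the knockout comparison. For comparison, all loci together had 8345 shared regions, out of 51243 in the knockdown comparison and 28282 in the knockout comparison. Listing in 1 pair of clones alone was therefore common throughout the series and not particular to these genes. Of the 5 member regions, 3 had the same direction (SNAI3 upstream and both TWIST1 regions described first) and 2 had opposite directions, at TWIST1 and TWIST2. Over the series, 52.6% of the 8345 regions in both single comparisons had the same direction. The other 16 member regions of the knockdown comparison and the other 10 of the knockout comparison were listed in 1 pair of clones alone. All 3 regions with the same direction were also in the mix, which held 8 further regions of the knockdown comparison and no region that both single comparisons lacked. No member region lay in the mix together with the knockout comparison alone.

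**Figure D3:**
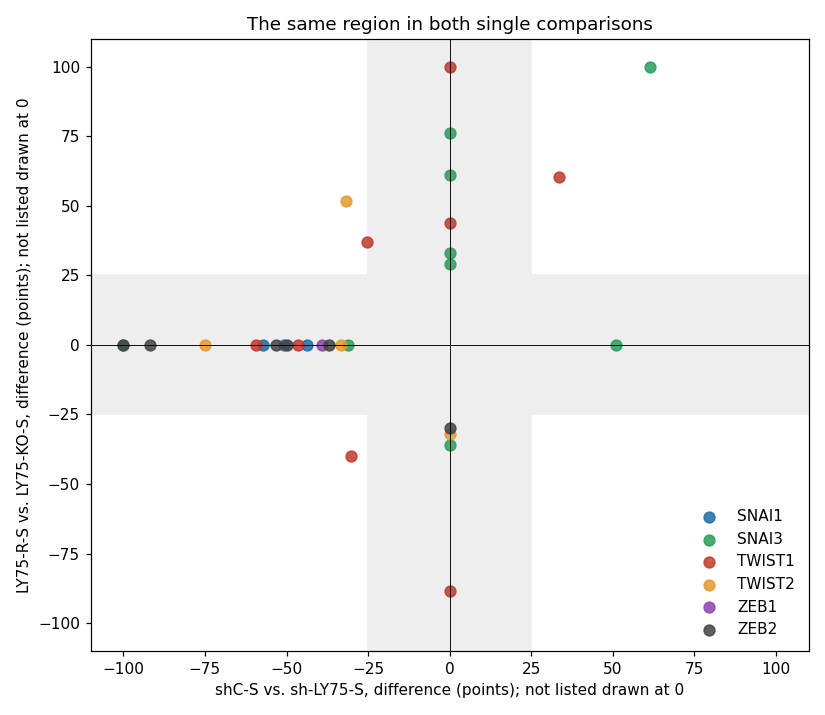
Difference of each member region in the knockout comparison (vertical axis, points, E minus M) against that in the knockdown comparison (horizontal axis, points, E minus M), coloured by gene. Regions listed in 1 comparison alone are drawn at 0 on the other axis, within the grey bands of under 25 points, and 5 points lie off the bands, 3 of them with the same sign on both axes.

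The factors were then set beside the pathway they act in, with 75 genes in 6 lists of partners, signals, targets and antagonists. In the knockdown comparison, 40 of the 75 genes had a region within 2 kb of a TSS (53.3%), in the knockout comparison 24 (32.0%) and in the mix 24 (32.0%), beside the shares of 37.5%, 21.4% and 19.9% of all protein-coding genes given above. Without the 5 non-coding genes of the lists, the counts were 37, 24 and 23 of 70 (52.9%, 34.3% and 32.9%). Each gene was counted by the sign of its largest region, although some, such as CRB3 and SMAD3, also held regions of the opposite sign. By that count, 18 of the 40 listed genes were hypermethylated in the knockdown comparison, 15 of 24 in the knockout comparison and 11 of 24 in the mix. Without the non-coding genes these were 16 of 37, 15 of 24 and 11 of 23. Of all protein-coding genes with a region near a TSS, 56.6%, 54.5% and 56.9% were hypermethylated. Among 9 other transcription factors of EMT, 6 had a region in the knockdown comparison. The largest region was hypomethylated in all 6, but SOX9 also held a hypermethylated region. In the knockout comparison 5 had a region, with 4 hypermethylated, and in the mix 5, with 1 hypermethylated.

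Epithelial targets include cadherin, claudin and polarity genes that the factors repress, and mesenchymal targets include genes of matrix and motility. Of 17 epithelial targets, 13 had a region in the knockdown comparison (7 hypermethylated), 5 in the knockout comparison (1 hypermethylated) and 7 in the mix (5 hypermethylated). Of 10 mesenchymal targets the counts were 5 (1 hypermethylated), 4 (3 hypermethylated) and 3 (1 hypermethylated). Of 12 antagonists, such as GRHL2, OVOL2 and the miR-200 host gene, they were 7 (4), 3 (2) and 4 (1), where MIR34B and MIR34C were both counted in the knockdown comparison through 1 shared region of 75.5 points. These splits rest on few genes and were not tested against the shares over all genes. Of 15 upstream signals they were 6 (4), 4 (3) and 4 (2), and of 12 corepressors and partners 3 (2), 3 (2) and 1 (1).

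**Figure D4:**
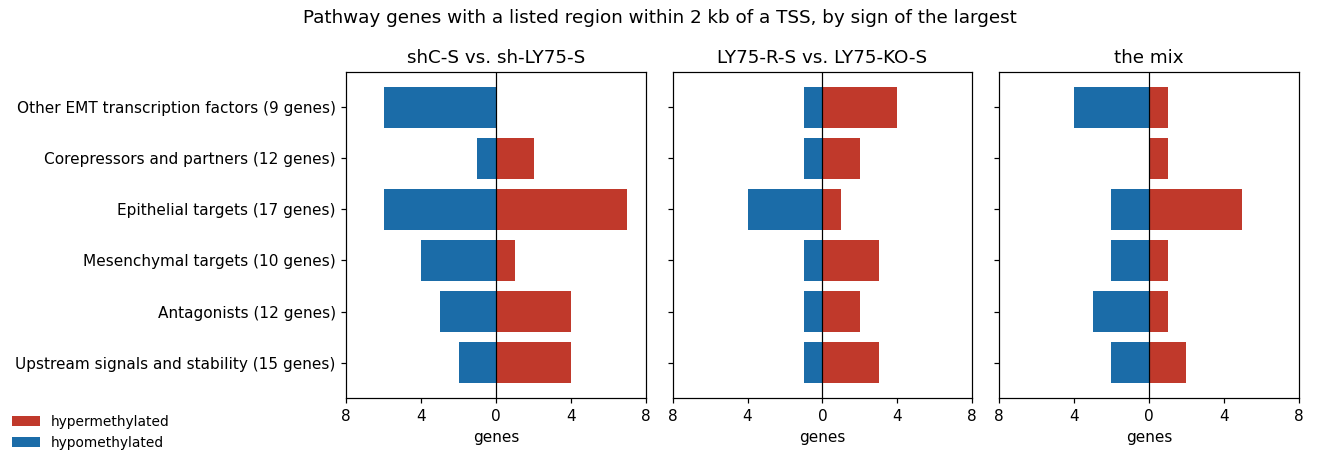
Number of genes with a listed region within 2 kb of a TSS (horizontal axis, genes), per list and comparison, with genes whose largest region was hypermethylated in E cells to the right (red) and hypomethylated to the left (blue). The list of other EMT transcription factors has 6 genes to the left and none to the right in the knockdown comparison, and 4 to the right and 1 to the left in the knockout comparison.

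CDH1, the epithelial cadherin that the factors repress, was hypermethylated at its canonical TSS in the knockdown clone. The region chr16:68771001-68772000 differed by 73.6 points in the knockdown comparison and by 43.2 points in the mix, and was not listed in the knockout comparison. An internal TSS region, chr16:68859001-68860000, was hypermethylated in both single comparisons, by 62.7 and 40.4 points. TJP3 (ZO-3, a tight junction protein) had its canonical TSS region at 25.9 points in the knockdown comparison and at −31.3 points in the knockout comparison. LLGL2, a polarity protein, held 63.2 points in the knockdown comparison and −50.0 points in the knockout comparison at a region 31223 bp from its canonical TSS. Nearer to that TSS, at 223 bp, the knockdown comparison listed −27.2 points.

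Among the other named genes, regions that both single comparisons listed went either way. GSC (goosecoid), a homeobox inducer of EMT, differed by −57.2 and 42.8 points at the same region 551 bp from its canonical TSS, and FOXC1, a forkhead factor, by −80.7 and 34.0 points at 1150 bp. TCF3, which encodes the E-box factors E12 and E47, differed by −50.0 and 33.2 points at the same region, chr19:1619001-1620000. Its largest region in the knockout comparison was chr19:1649001-1650000, at 100 points, with 53.8 points in the mix. DNMT1, the maintenance DNA methyltransferase, was hypermethylated in all tables at a region 1372 bp from its canonical TSS, by 27.5 points in the knockdown comparison, 30.5 points in the knockout comparison and 28.8 points in the mix. At MMP2, a matrix metalloproteinase, an internal TSS region 25891 bp from the canonical TSS was hypomethylated in both, at −100 and −47.1 points. SMAD3, which carries TGF-beta signals to the nucleus, was hypermethylated in both at an internal TSS, by 50.0 and 95.2 points.

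Elsewhere the single comparisons listed different regions as the largest. Near its canonical TSS, MMP2 had −50.0 points 891 bp away in the knockdown comparison and 53.0 points 110 bp away in the knockout comparison. OVOL2, a repressor of EMT, had −58.9 points at its canonical TSS in the knockdown comparison and 37.9 points 1560 bp away in the knockout comparison. TGFB2, a TGF-beta ligand, had −81.0 points 1323 bp from its canonical TSS and 100 points 1678 bp from it. SMAD3 had −49.5 points at its canonical TSS in the knockdown comparison and −100 points 940 bp from it in the knockout comparison, both hypomethylated, while its largest region in the knockdown comparison was at another internal TSS (91.9 points). CDH2 (N-cadherin) had 70.1 points 1094 bp from its canonical TSS and −33.0 points at an internal TSS.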

How the data were processed

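RRBS was done on 4 libraries, 1 per SKOV3 clone, with MspI digestion and single reads of 50 bp. The submitters' processing notes name FastQC, Trim Galore 0.4.1, Bismark 0.16.1, methylKit and hg19. The authors deposited, for each of 3 comparisons, 1000-bp tiles past their thresholds with a signed methylation difference in percent (points), with methylKit's p-value and q-value; these are the authors' own comparisons, are used here as deposited, and compare libraries, not conditions. Coverage minimum and depth are not given in the sources used here, so no interval was computed. Reads without molecular identifiers are not independent molecules.

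Regions were placed on GENCODE release 44 lifted to GRCh37 (the same build as hg19), and readable CpGs came from an in-silico MspI digest. The counting of regions and the digest were tested on simulated data. Members and lists were chosen with earlier results of these data known. Named were all members and, per list, at most 3 genes with regions near a TSS in both single comparisons and the largest smaller absolute difference, plus CDH1. Scripts ran in Python 3.11.15 with pandas 2.3.3, numpy 2.4.6, matplotlib 3.10.9 and scipy 1.17.1.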

Additional observations from a re-analysis of the deposited data

Results flagged for a closer look

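At 2 regions the clones of the single comparisons moved in opposite directions. The region chr2:239833001-239834000 downstream of TWIST2 differed by −31.9 points in the knockdown comparison and by 51.9 points in the knockout comparison. The region chr7:19146001-19147000 behind TWIST1 differed by −25.3 and 36.9 points. As the tables give no values per library, the difference between the comparisons was not tested, and with the opposite order of subtraction for the knockout comparison these would be the regions of equal direction.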

How the results depend on the processing

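No paired analysis was possible because the tables give no methylation level per library, so the M and E libraries of the 2 pairs of clones could not be fitted together. Of 73 alternatives for 16 results, 52 stayed within 1.5 times the value given and 21 did not. For the knockdown comparison, 11 regions remained at 50 points or more, and a 20-kb flank gave 6 hypermethylated regions (of 24). For the knockout comparison, a 2-kb flank gave 6 regions (5 hypermethylated), no flank 4 (3), a minimum of 50 points 7 (6, with a median of 76.0 points), and the opposite order of subtraction 5 hypermethylated. For the mix, a 2-kb flank and no flank each gave 7 regions (1 hypermethylated), a 20-kb flank 4 hypermethylated, and a minimum of 50 points 2 regions (1 hypermethylated, median 76.7 points, 1 gene near a TSS). Regions in both single comparisons numbered 3 with no flank and 1 at 50 points. A narrower flank or higher minimum holds fewer regions by construction. With the 20-kb flank the hypermethylated share was 25%, 72.2% and 30.8%, in the order of the comparisons.

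As the tables give no coverage, the number of reads behind a difference of 100 points is unknown, and absence from a table does not show equal methylation. The digest is approximate, as it reaches no CpG of 1 listed region (TWIST1, −88.6 points), and absence from it, as for the canonical TSS of ZEB2, does not show that a tile was not read. Methylation differences were not set against expression.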
